A study of Homo sapiens with 8 samples.

Results

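Described here are the control H4K16ac peaks of KGN cells that lay far from gene starts and had no counterpart after butyrate. Overlapping rows of the control H4K16ac peak list were merged, on chromosomes 1 to 22 and X. A peak was kept when its centre lay more than 10000 bp from the closest gene start in the authors' annotation and when no merged butyrate H4K16ac peak overlapped it by 1 bp or more. This left 37920 of 73586 control H4K16ac peaks, called lost distal peaks below. "Lost" means only that no peak was called in the butyrate library. Another 2098 distal control peaks overlapped a butyrate peak and are called retained.

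KGN is an established human granulosa tumour line that stands in for the steroid-making cells around the oocyte. The butyrate-treated cells were given a dose of 1 mM for 6 h (butyrate is a fermentation product that blocks class I and II histone deacetylases), and the control cells were kept for 6 h without it. Both conditions share the passage range and the serum-containing medium. Chromatin immunoprecipitation and sequencing was done with an antibody to histone H3 acetylated at lysine 9 (H3K9ac), with one to histone H4 acetylated at lysine 16 (H4K16ac) and with nonspecific immunoglobulin (IgG), in 1 library per condition each. With 1 library per group there is no replicate check: no difference between conditions was tested, and intervals (95%, exact) cover counting only. The cells are 1 line, so nothing here speaks to other granulosa cells. Peak names in both lists labelled H4K16ac carry the letters k12, and the mark is called here by its label.

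H4K16ac is laid down mainly by the acetyltransferase KAT8, within the MSL and NSL complexes, and removed by deacetylases that include sirtuins. It loosens the packing of nucleosomes and is found along the bodies of transcribed genes as well as at their promoters. H3K9ac sits mainly at the starts of active genes, so an H3K9ac peak at a start is a common sign that the gene is in use.

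The peaks lie mostly in introns and intergenic stretches, whose bases are not shown here. A few of them, however, overlapped the 250 bases before a RefSeq transcript start that the authors' gene-level starts leave out, and there some of their bases could be read. Each line below gives these bases for 1 start (RefSeq, GRCh38.p14, 5′ to 3′ on the strand of the gene), with the bases inside the lost H4K16ac peak in capitals. They are shown as examples of H3K9ac in both conditions (RNF220), with butyrate only (HDAC4) and in neither (ACACA and ZFHX3). H3K9ac in control only was rare, and no example is shown.
RNF220: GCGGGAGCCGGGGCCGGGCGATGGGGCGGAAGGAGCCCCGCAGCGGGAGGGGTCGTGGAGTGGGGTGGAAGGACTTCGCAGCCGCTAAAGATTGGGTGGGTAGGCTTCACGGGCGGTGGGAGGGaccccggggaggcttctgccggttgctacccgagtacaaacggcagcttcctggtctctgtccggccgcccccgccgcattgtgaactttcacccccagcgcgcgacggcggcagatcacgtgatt
HDAC4: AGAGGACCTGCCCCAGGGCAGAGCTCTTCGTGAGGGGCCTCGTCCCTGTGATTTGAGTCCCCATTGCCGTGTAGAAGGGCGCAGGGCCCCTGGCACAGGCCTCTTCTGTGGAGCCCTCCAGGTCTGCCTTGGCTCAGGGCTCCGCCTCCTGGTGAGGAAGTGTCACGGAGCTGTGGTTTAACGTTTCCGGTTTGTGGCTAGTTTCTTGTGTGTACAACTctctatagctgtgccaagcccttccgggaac
ACACA: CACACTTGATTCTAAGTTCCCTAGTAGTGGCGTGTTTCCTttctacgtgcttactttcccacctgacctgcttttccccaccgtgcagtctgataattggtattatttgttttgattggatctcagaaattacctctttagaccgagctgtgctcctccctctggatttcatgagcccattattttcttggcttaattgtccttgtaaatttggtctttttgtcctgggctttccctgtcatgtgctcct
ZFHX3: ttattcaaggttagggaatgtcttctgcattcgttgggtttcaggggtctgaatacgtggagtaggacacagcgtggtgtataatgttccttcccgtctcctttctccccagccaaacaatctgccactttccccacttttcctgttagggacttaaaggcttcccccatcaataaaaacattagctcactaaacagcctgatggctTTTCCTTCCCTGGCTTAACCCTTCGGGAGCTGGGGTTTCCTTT

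The RNF220 window, chr1:44631718-44631967 on the plus strand, lies before an inner start of a ubiquitin ligase gene. Its lost peak had a fold of 3.90 and overlapped H3K9ac in both libraries, and the window held 26 CpG pairs and 69.2% G and C. The HDAC4 window, chr2:239267515-239267764 on the minus strand, belongs to a class II histone deacetylase, the enzyme family that butyrate inhibits. Its lost peak had a fold of 2.61 and overlapped H3K9ac with butyrate, while the nearest control H3K9ac peak was 5354 bp away. The window held 9 CpG pairs.

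The ACACA window, chr17:37299768-37300017 on the minus strand, lies in the gene of acetyl-CoA carboxylase, which makes malonyl-CoA for fatty acid synthesis. The lost peak there had a fold of 2.94, and the nearest H3K9ac peak was 22731 bp away with butyrate and 56543 bp away in control. The ZFHX3 window, chr16:73144448-73144697 on the minus strand, lies in a zinc finger homeobox gene. Its lost peak had a fold of 4.61, and the nearest H3K9ac peak was 30003 bp away with butyrate and 47763 bp away in control. These AT-richer windows held 4 (ACACA) and 5 (ZFHX3) CpG pairs.

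Lost distal peaks overlapped 106 of 34961 RefSeq start windows. Of the 106 windows 57 were at long noncoding RNA genes, against 12829 of all 34961. H3K9ac overlapped 39 of the 106 with butyrate and 24 in control, against 13904 and 10665 of all windows. The 24 windows with control H3K9ac had a median of 18 CpG pairs, the 16 with H3K9ac under butyrate only had 6 and the 66 without H3K9ac had 2, against 11 over all windows. The motif GGGCGG, a GC box, was found on either strand in 17.0% of the 106 windows and 42.7% of all windows. CCAAT was found in 26.4% and 32.0%, and TGACTCA, an AP-1 site, in 4.72% and 4.17%. No motif holds another, and a match is a string of letters, not a bound site. Starts in this table, which lacks chromosome 8, were seldom overlapped, as the rule fixes by excluding peaks near the authors' gene starts. The few windows overlapped were CpG-poorer than all windows, with a median of 4 CpG pairs against 11. All windows, however, include the authors' gene starts that the rule leaves out.

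The lost distal peaks were narrow and weak, like the control H4K16ac list as a whole. By the authors' values, their median width was 346 bp (426 bp for retained distal peaks), their median fold over local background 2.94 (2.99) and their median −log10 q 1.12 (1.24). Whole fragment numbers could be recovered from fold and p, and the median summit held 9 fragments over a local background of 2.22 fragments. The implied depth of the control H4K16ac library was 17.4 M fragments. The list was limited on p, at 0.005, and its largest q was 0.304. A q of 0.05 or less was reached by 37.7% of lost distal peaks (37.2 to 38.2) and by 46.4% of retained ones.

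The butyrate H4K16ac list is weaker, which bears on every statement of loss. It held 33752 peaks, against 73586 in control, and of its 18102 distal peaks only 1.08% reached a q of 0.05, against 38.1% (15261 of 40018) in control. The background of loss was high at every distance: 93.8% of all control H4K16ac peaks had no butyrate peak. The share was 94.8% (94.53 to 94.97) of the distal peaks and 92.8% (92.5 to 93.0) of those within 10 kb of a start. Since the rule chose on this contrast, the share is a description. With the control list cut to its top 33752 peaks, 93.8% of its distal peaks had no butyrate peak. This cut left the butyrate list as it was, so it cannot show what the weakness of that list does. A difference in immunoprecipitation between the 2 libraries and a difference between the conditions cannot be told apart. A butyrate H4K16ac peak lay within 1 kb of 8.81% of lost distal peaks, within 10 kb of 44.1% and within 100 kb of 92.6%. No background was computed for these windows, and whether those peaks were there in control was not asked.

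Peaks on both sides of the distance limit are given for orientation. A 283 bp peak in TMEM266, a 252 bp peak near TSPAN13 and a 610 bp peak in NCK1 lay 10001 bp from a start, with folds of 3.82, 2.64 and 2.48. Lost peaks in WDR43, JARID2 and TREH lay at 10000, 10000 and 9999 bp, with folds of 2.64, 2.87 and 3.57. Neither IgG list, of 2 peaks with butyrate and 5 in control, overlapped a lost distal peak.

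Gene activity of the line was read from H3K9ac at starts. Of 15 granulosa markers with a known start, 9 had an H3K9ac peak there with butyrate and 5 in control (FOXL2, INHA, INHBB, ESR2 and GATA6), while CYP19A1, FSHR, AMH, INHBA, NR5A1 and NR5A2 had none in either. Theca and stroma had 4 of 6 with butyrate and 1 in control, blood 2 of 5 and 0, endothelium 1 of 5 and 0, epithelium 2 of 4 and 2, oocyte 2 of 5 and 2, and neurons 3 of 4 and 0. The granulosa fraction was thus not above that of every other list, and the start peaks alone do not mark the line as granulosa.

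Lost distal H4K16ac lay inside genes, and mostly inside genes with H3K9ac at their start. In the authors' columns 76.3% (75.9 to 76.7) of lost distal peaks overlapped a gene, against 57.7% of retained distal peaks, and 55.0% of distal butyrate H4K16ac peaks did. Of those inside a gene, 92.9% were centred in an intron, 3.66% in an exon and 3.21% in an untranslated region. H3K9ac was not used to choose the peaks. Protein-coding genes with a control H3K9ac peak within 1 kb of a start (marked genes below) held 59.1 lost distal peaks per Mb of sequence farther than 10 kb from starts (58.4 to 59.8). Genes without one held 6.41 per Mb and sequence outside protein-coding genes 4.70 per Mb, so density was 9.23 times as high in marked as in unmarked genes. For all distal control H4K16ac peaks, retained ones included, this ratio was 8.73. In the same sequence the distal butyrate H4K16ac peaks had 15.8, 5.95 and 4.84 per Mb, a ratio of 2.66. Outside protein-coding genes all distal control H4K16ac peaks, retained ones included, had 5.18 per Mb. There the lists of the 2 conditions were thus nearly level, at 5.18 in control and 4.84 with butyrate.

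The state of the start in both libraries separated the genes further. In the 10707 genes with H3K9ac at a start in both conditions the density was 59.2 lost distal peaks per Mb. In the 1811 genes with a start peak under butyrate only it was 12.2 per Mb (11.4 to 13.0), and in the 5987 genes with no start peak 4.96 per Mb (4.71 to 5.21). Genes whose start was called only with butyrate thus held fewer lost distal peaks per Mb than genes called in both. They held more than genes with no start peak. All distal control H4K16ac peaks were not split in this way. Among the marked genes, density was 41.1 per Mb in the group with the lowest control H3K9ac fold at the start (5.42 or less), 60.5 and 70.9 in the next groups and 71.0 in the group with the highest (7.85 or more). The relation held for both strengths of peak: marked over unmarked genes came to 9.35 for lost distal peaks with a q of 0.05 or less and 9.15 for the others.

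**Figure D1:**
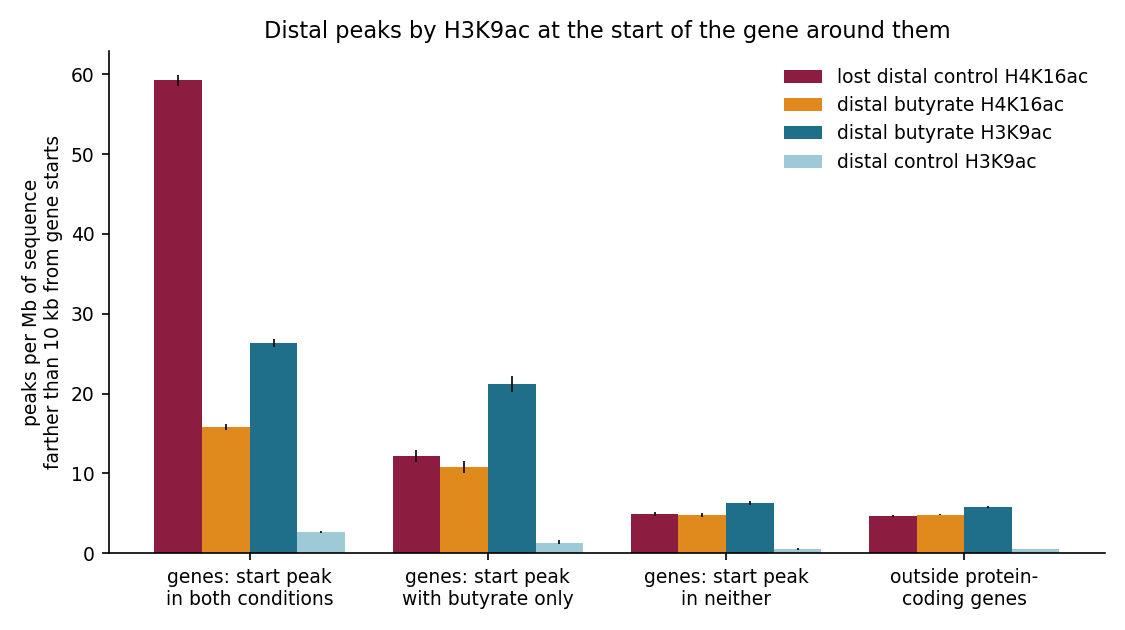
Peaks per Mb of sequence farther than 10 kb from gene starts (vertical axis), in protein-coding genes grouped by H3K9ac at their start and outside such genes; bars are lost distal control H4K16ac peaks and the distal butyrate H4K16ac, butyrate H3K9ac and control H3K9ac peaks, with exact 95% counting intervals. Lost distal H4K16ac stands at 59.2 per Mb in genes with a start peak in both conditions and at 12.2, 4.96 and 4.70 in the other classes.

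Within marked genes the lost distal peaks ran deep into the gene. Density was 65.5 per Mb at 10 to 25 kb from the start, 70.2 at 25 to 50 kb, 68.8 at 50 to 100 kb, 58.5 at 100 to 200 kb and 33.6 beyond 200 kb. Distal butyrate H4K16ac peaks had a similar profile at lower density, with 19.8, 16.7, 16.4, 15.4 and 11.0 per Mb. Distal butyrate H3K9ac peaks thinned steadily over the same bins, with 46.9, 34.7, 23.2, 17.4 and 8.89 per Mb, and distal control H3K9ac peaks had 3.46 per Mb in the first bin and 0.978 in the last. H4K16ac peaks of both conditions thus stayed near 1 density over the first 100 kb more than butyrate H3K9ac peaks, which were densest near the start.

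Gene by gene, long genes with many lost distal peaks nearly all had H3K9ac at the start. Among 5913 protein-coding genes of at least 50 kb, 71.1% had a start peak with butyrate and 63.3% in control, and 55.7% hosted 1 or more lost distal peaks. Of the 2617 without any, 45.8% had a start peak with butyrate and 34.1% in control. The control share was 79.4% in genes with 1 to 4 lost distal peaks, 92.0% with 5 to 9, 94.9% with 10 to 19 and 94.8% (91.1 to 97.3) in the 232 genes with 20 or more. Host genes were longer with more lost peaks, at a median of 88.4 kb for 1 to 4 and 225 kb for 20 or more, against 105 kb for genes without any. The longest genes without any were RBFOX1 (2474 kb), CNTNAP2 (2304 kb) and PTPRD (2299 kb), known for their use in neurons, and none of these had control H3K9ac at a start. LRP1B, at 1900 kb, had H3K9ac at a start in both conditions and no lost distal peak.

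**Figure D2:**
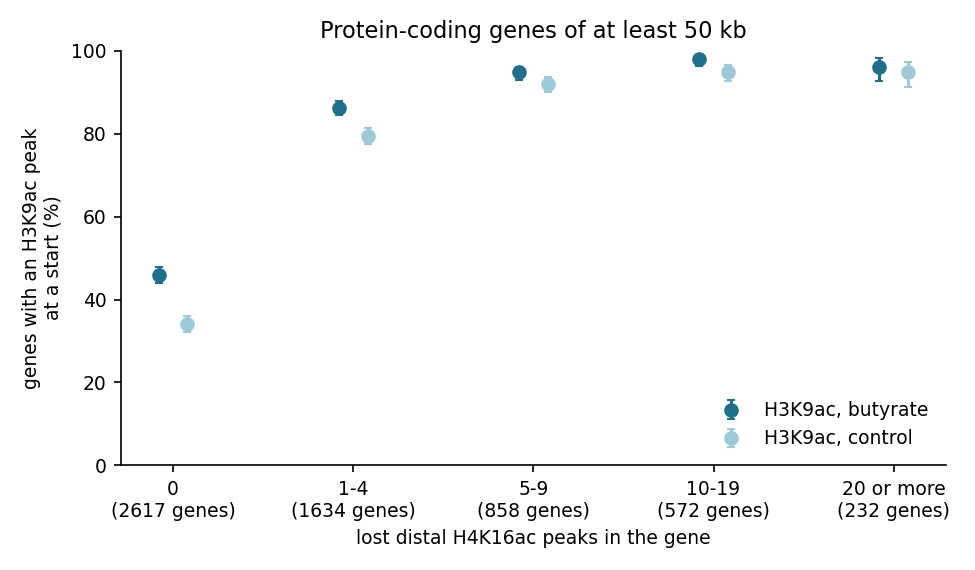
Share of protein-coding genes of at least 50 kb with an H3K9ac peak within 1 kb of a start (vertical axis, percent), by the number of lost distal H4K16ac peaks in the gene (horizontal axis); points are butyrate and control H3K9ac with exact 95% intervals. The control share is 34.1% in genes without a lost distal peak and 94.8% in genes with 20 or more.

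In the authors' columns 6057 genes hosted a lost distal peak, 1825 of them just 1, with a median of 3. At the other end 869 genes hosted 10 or more and held 39.0% of all lost distal peaks. Choosing genes by lost peaks favours many H4K16ac peaks in control and few with butyrate. In these 869 genes the median number of H4K16ac peaks was 3 with butyrate and 19 in control, and 114 had no butyrate H4K16ac peak at all. The median number of H3K9ac peaks in them was 5 with butyrate and 1 in control. H3K9ac peaks were more numerous with butyrate in 696 of the 869, equal in 135 and fewer in 38. The butyrate H3K9ac list is the longer one over the whole genome, at 79356 peaks against 22215. The same count is not given for other genes, so these numbers do not set the 869 apart.

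TRIO led the hosts. It encodes a protein that reshapes the actin skeleton, and its 367 kb on chromosome 5 held 103 lost distal peaks, 60 of them with a q of 0.05 or less. H4K16ac peaks in TRIO numbered 14 with butyrate and 106 in control, and H3K9ac peaks 20 with butyrate and 4 in control. MYO10, the unconventional myosin of filopodia, held 70 lost distal peaks in 274 kb on the same chromosome. Its H4K16ac peaks numbered 19 with butyrate and 77 in control, and its H3K9ac peaks 19 with butyrate and 1 in control. Other genes of cell shape and transport followed: CARMIL1, which controls actin capping, held 54, and KIF13A, a kinesin motor, 51.

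**Figure D3:**
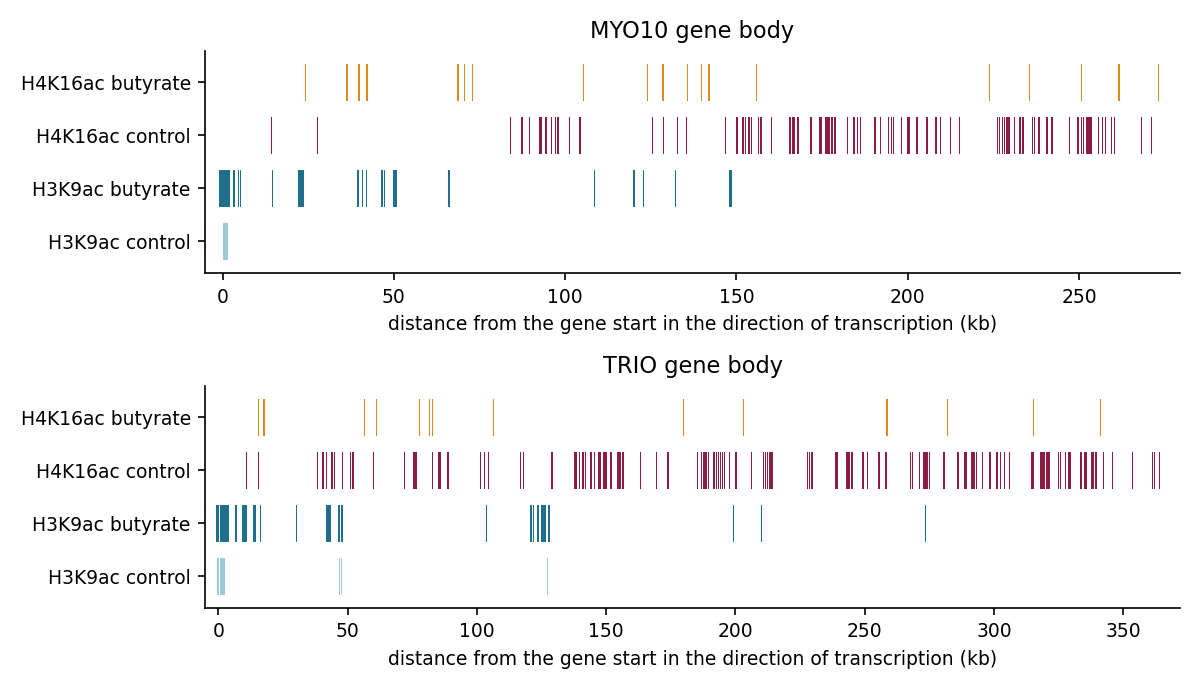
Peaks along the MYO10 and TRIO gene bodies, by distance from the gene start in the direction of transcription (kb, horizontal axis); the rows are H4K16ac and H3K9ac with butyrate and in control, each bar a peak. Control H4K16ac has 77 peaks in MYO10, with only 2 of them before 83.8 kb, and 106 in TRIO, spread from 10.7 to 364 kb, while H3K9ac with butyrate is densest in the first 50 kb.

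Growth and signalling genes were also among the leading hosts. RPTOR, which encodes the scaffold raptor of the mTORC1 kinase complex, held 74 lost distal peaks. Its H4K16ac peaks numbered 37 with butyrate and 94 in control, and its H3K9ac peaks 42 with butyrate and 7 in control. IGF1R, the receptor of insulin-like growth factor 1, held 51 lost distal peaks, with 31 H4K16ac peaks with butyrate and 83 in control. FAF1, a ubiquitin-binding protein of the Fas pathway, held 53, with 5 H4K16ac peaks with butyrate and 67 in control. FAF1 was the leading host with the fewest H3K9ac peaks under butyrate, 4 against 3 in control.

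Transcription factors and RNA-handling genes made up the rest. CUX1, a homeobox factor, held 92 lost distal peaks and had 67 H4K16ac peaks with butyrate and 150 in control. CAMTA1, a calmodulin-binding transcription activator of 984 kb, held 66, with 60 H4K16ac peaks with butyrate and 98 in control. GLI2, a transcription factor of the Hedgehog pathway, held 49. SND1, a Tudor-domain nuclease, held 66 lost distal peaks, with 12 H4K16ac peaks with butyrate and 85 in control, and PARN, which shortens poly(A) tails, held 48. In each of the 12 leading hosts H4K16ac peaks were fewer with butyrate, which the choice of hosts favours. H3K9ac peaks were more numerous with butyrate in each, as over the whole genome.

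**Figure D4:**
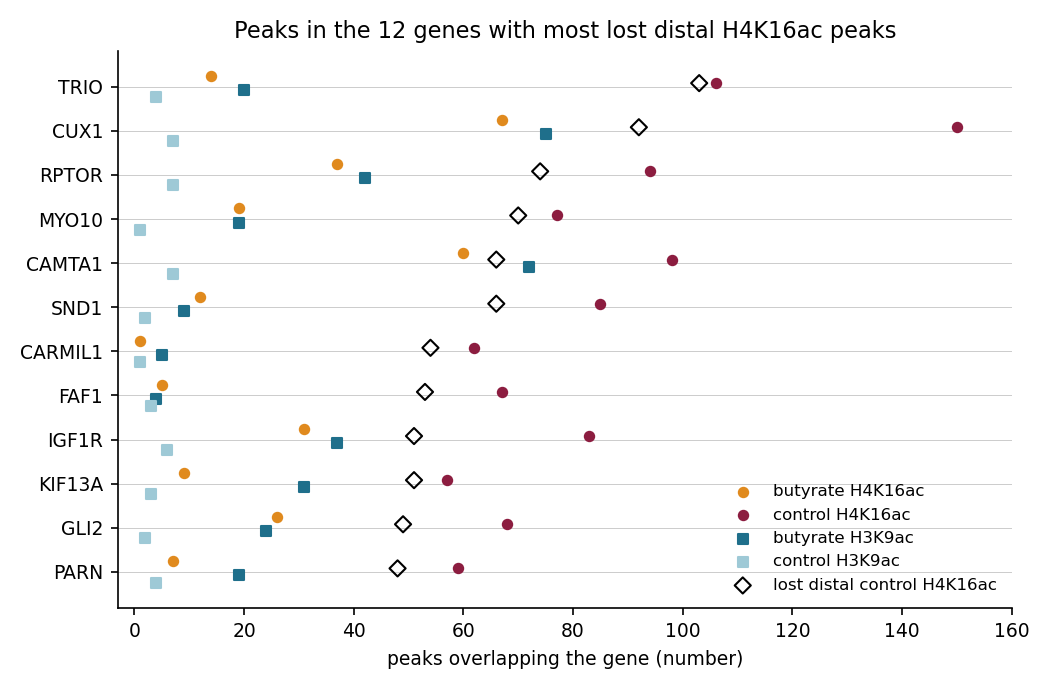
Number of peaks overlapping the gene (horizontal axis) in the 12 genes with most lost distal H4K16ac peaks; circles are H4K16ac with butyrate and in control, squares H3K9ac with butyrate and in control, and open diamonds the lost distal peaks. TRIO has 14 H4K16ac peaks with butyrate and 106 in control, and H3K9ac is higher with butyrate in all 12 genes.

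Per length, smaller genes led. C6orf89 had 36.8 lost distal peaks per 100 kb (21 in 57.1 kb), and YIPF1, a Golgi membrane protein, had 34.2. CHD2, a chromatin remodeller that binds transcribed genes, had 32.9 per 100 kb, with 42 lost distal peaks, 1 H4K16ac peak with butyrate and 47 in control. IQGAP3 (31.8), MRAS (29.4), CERS5 (28.9), FBXO21 (28.9), TRIO (28.1), PTCD2 (27.1) and MGLL (26.8) followed, the last being the lipase of monoacylglycerols. All 10 had H3K9ac at a start in both conditions. CERS5, a ceramide synthase, and FBXO21, an F-box protein, had no H4K16ac peak left with butyrate, against 15 and 16 in control.

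Lost distal peaks came in runs. Neighbours were a median of 5994 bp apart, while distal butyrate H4K16ac peaks, a shorter list, were 21612 bp apart. Joined at gaps of 5 kb or less, lost distal peaks formed 1247 groups of 5 or more that held 23.1% of them, and 164 groups of 10 or more. All distal control H4K16ac peaks, retained ones included, were a median of 5387 bp apart, with 26.7% in groups of 5 or more. Runs were thus not particular to the lost peaks. The largest run, chr5:16721110-16789776 in MYO10, held 34 lost distal peaks over 68.7 kb, with 1 H4K16ac peak with butyrate and 34 in control, and 1 H3K9ac peak with butyrate and 0 in control. The lost peaks covered 23.5% of it, and the rest of it had no lost distal peak.

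Runs of 28 lay in PARN (chr16:14478888-14531841) and RPTOR (chr17:80817172-80874370). The PARN run had 3 H4K16ac peaks with butyrate and 31 in control, and 12 H3K9ac peaks with butyrate and 2 in control. The RPTOR run had 6 H4K16ac peaks with butyrate and 32 in control, and 16 H3K9ac peaks with butyrate and 2 in control. Runs of 26 lay in TUT4, a uridylyl transferase of RNA 3′ ends (chr1:52424727-52497835), in CUX1 (chr7:102091257-102140291) and at chr6:6824717-6870948, where the authors' columns name no gene. The TUT4 run had no H3K9ac peak in either library, and the CUX1 run had 16 with butyrate and 0 in control. Runs of similar size thus occurred both with and without H3K9ac under butyrate.

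H3K9ac itself was sparse on the lost distal peaks. A butyrate H3K9ac peak overlapped 8.02% of them (7.75 to 8.30) and a control H3K9ac peak 1.26% (1.15 to 1.38). These shares lay below the 15.8% and 5.6% of all control H4K16ac peaks, which include peaks near starts. The rule leaves such peaks out, and only 34.0% of butyrate and 11.9% of control H3K9ac peaks were distal. Lower shares are thus favoured by the choice of peaks. Distal butyrate H4K16ac peaks had 7.47% with butyrate and 0.348% in control. Retained distal peaks had 18.2% with butyrate and 1.86% in control, and lost peaks near starts had 23.9% with butyrate and 11.0% in control. Within 10 kb the shares for lost distal peaks were 45.3% with butyrate and 12.8% in control. The median distance to the nearest H3K9ac peak was 12120 bp with butyrate and 36557 bp in control, against 2236 bp with butyrate and 24269 bp in control for retained distal peaks. With the butyrate H3K9ac list cut to as many top peaks as the control list, the butyrate overlap of lost distal peaks was 3.004%. The length of the list and a difference between the conditions cannot be told apart here.

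**Figure D5:**
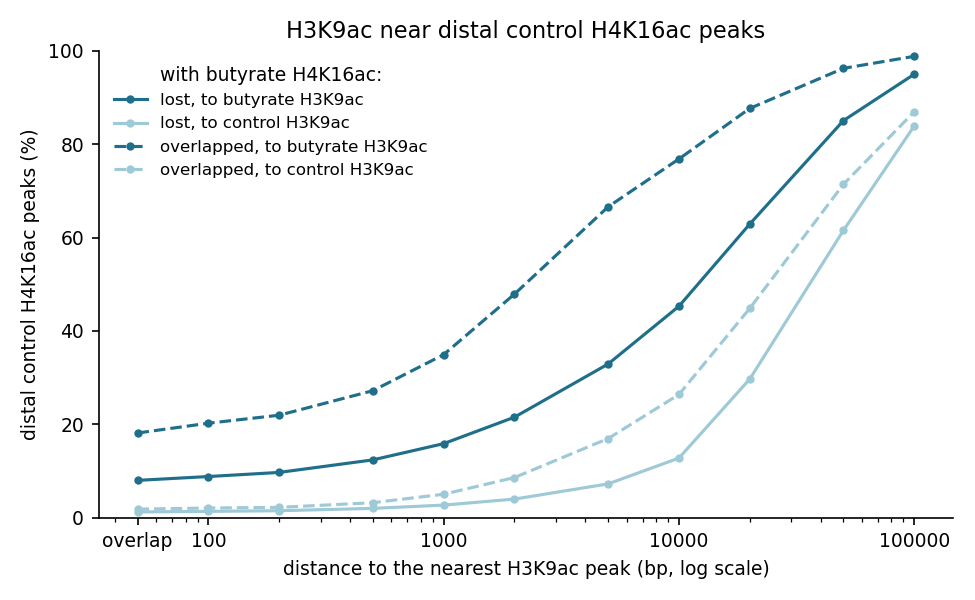
Share of distal control H4K16ac peaks (vertical axis, percent) with an H3K9ac peak within a given distance (horizontal axis, bp, log scale, with overlap at the left end); solid lines are lost and dashed lines retained distal peaks, to butyrate or control H3K9ac. At 10 kb the lost peaks reach 45.3% for butyrate and 12.8% for control H3K9ac, and the retained peaks 76.8% and 26.4%.

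The overlap was mostly H3K9ac called with butyrate only. It was found at 2595 lost distal peaks (6.84%), H3K9ac in both conditions at 446 (1.18%) and in control only at 31 (0.0818%). Over all control H4K16ac peaks the shares were 10.5%, 5.28% and 0.319%, and for retained distal peaks 16.5%, 1.62% and 0.238%. H3K9ac called with butyrate only was thus not particular to the lost distal peaks. Seen from the other mark, 9.51% of the 24928 distal H3K9ac peaks called with butyrate only overlapped a lost distal H4K16ac peak. Stronger lost peaks overlapped butyrate H3K9ac more often, 10.3% (9.82 to 10.8) of those with a q of 0.05 or less and 6.64% (6.32 to 6.96) of the others.

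Hosts differed widely in this. Of the 869 genes with 10 or more lost distal peaks, 567 had none that overlapped butyrate H3K9ac, and 14 had such an overlap at 50% or more of them. FBLN1, the extracellular matrix protein fibulin 1, had it at 9 of 10, and its H3K9ac peaks numbered 36 with butyrate and 4 in control. HPCAL1, a calcium sensor, had it at 11 of 15, PIK3C2B, a class II phosphoinositide kinase, at 11 of 15, RAP1GAP, which switches off Rap1, at 8 of 11, and RAI1 at 12 of 18. An unnamed gene on chromosome 6, ENSG00000237686, had it at 16 of 19. RAP1GAP had no H3K9ac at a start in either condition, yet 27 H3K9ac peaks with butyrate and 5 in control inside the gene. SND1 and FAF1 were at the other end, with 0 of 66 and 0 of 53.

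The strongest lost distal peaks lay close to H3K9ac. The peak with the highest −log10 q, 7.63, was at chr15:76164505-76165953 in intron 5 of TMEM266, with a fold of 6.62, and a butyrate H3K9ac peak lay 200 bp away and a control one 610 bp away. The next, chr1:201300178-201300863 in intron 2 of PKP1, a desmosome protein, had a fold of 5.75 and overlapped H3K9ac in both libraries. The third and the sixth, chr22:35584682-35585118 near MB and chr10:46540384-46540989 near GPRIN2, overlapped butyrate H3K9ac, with control H3K9ac 42287 and 14258 bp away. The others, at chr5:1567115-1567826 and chr3:129197402-129198297, had butyrate H3K9ac 116 and 878 bp away. All 6 thus had H3K9ac within 1 kb with butyrate, as 15.9% of lost distal peaks did. In order of −log10 q, the nearest butyrate H4K16ac peak lay 605, 1268, 16293, 230, 24042 and 1350 bp away. The first and the fourth would thus count as shared if a butyrate peak within 1 kb were enough.

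Gene lists showed where lost distal H4K16ac was common and where it was rare. Over all 19970 protein-coding genes 25.5% hosted at least 1 and 9.36% at least 5, with a median length of 24.2 kb, and most lists hold longer genes, so each count is set beside the number per 100 kb of gene. Of the 6258 protein-coding genes of at least 50 kb, 3328 were hosts. All 28 ubiquitin ligases and proteases below and 28 of the 30 DNA repair genes are that long. All 28 ubiquitin ligases and proteases hosted lost distal peaks and 24 hosted 5 or more, at 8.04 per 100 kb against 2.15 over all protein-coding genes, with a median of 11.5 per gene against 0. USP34, a deubiquitinase, held 40, the ligase HERC1 31 and the ligase UBR3 26. All 30 DNA repair genes were hosts, 18 with 5 or more (median 6.5 per gene), at 5.32 per 100 kb, led by MSH3 (26), a mismatch repair protein, FANCC (16) of the Fanconi pathway, and ATR and RAD51B (15 each).

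Chromatin genes were hosts too. Of 30 histone methyltransferases and demethylases 26 were hosts, at 5.38 per 100 kb, led by KMT2C (27), NSD1 (23) and KDM6A (18). Of 27 remodellers 21 were hosts, at 5.65 per 100 kb, led by CHD2 (42), CHD9 (24) and ARID2 (21). Acetyltransferases and acetyl readers had 15 hosts of 21, at 5.30 per 100 kb, with TRRAP (17), KAT6B (15) and NCOA3 (15) leading. Deacetylases and their partners had 13 of 24, at 3.08 per 100 kb, with HDAC4 (27), the corepressor NCOR1 (10) and SIN3A and RCOR3 (7 each). Of the 14 genes of the KAT8, MSL and NSL complexes, which write the mark, 3 were hosts, at 4.50 per 100 kb: PHF20 (23), KANSL3 (9) and DHX9 (3), and KAT8 itself, a short gene, was not. In PHF20 H4K16ac peaks numbered 8 with butyrate and 46 in control.

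Cytoskeleton and adhesion genes had 24 hosts of 30 (median 8 per gene), at 5.12 per 100 kb, led by MYO10 (70), MACF1 (45), which links actin and microtubules, and the focal adhesion kinase PTK2 (38). Insulin, IGF and mTOR signalling had 20 hosts of 27, at 6.65 per 100 kb, led by RPTOR (74), IGF1R (51) and PIK3CB (18). TGF-beta, SMAD and Hippo signalling had 19 of 28, at 4.05 per 100 kb, led by YAP1 (23), TGFBR3 (21) and STK4 (19). Splicing and elongation had 16 of 27, at 4.52 per 100 kb, led by CDK13 (23), RBM6 (18) and MED13L (12). The circadian clock had 10 hosts of 18, at 1.06 per 100 kb, led by CRY1 (6), TBL1X (5) and PER2 (3).

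Granulosa and neuronal genes held few. Of 23 granulosa identity genes 4 were hosts, at 0.561 per 100 kb: BMPR2, a BMP receptor (6), GATA6 and RUNX1 (2 each) and KITLG (1). Of 24 steroid hormone synthesis genes 11 were hosts, at 2.00 per 100 kb, close to the 2.15 of all protein-coding genes. The cyclase gene ADCY9 (24) and the phosphodiesterase genes PDE4D (20) and PDE8A (8) led, out of 74 in the list. CYP11A1 held 2 and HSD17B4 5, while STAR, HSD3B1, HSD3B2, CYP17A1, CYP19A1 and HSD17B1 held 0. Of those with 0, all but CYP19A1 are shorter than 10 kb. Of 31 long neuronal genes, with a median length of 1250 kb, 7 were hosts (median 0 per gene), at 0.0419 per 100 kb. The most, 10, were in DMD, the dystrophin gene. In control, H3K9ac at a start was present at 8 of the 26 neuronal genes and 10 of the 22 granulosa genes with a known start. It was present at 26 of 28 ubiquitin genes and at 10741 of 18539 protein-coding genes. The steroid synthesis (16 of 22) and circadian clock (13 of 18) lists did not follow this order. Their start peaks were frequent, yet their densities lay below that of all protein-coding genes. Each density is summed over the lengths of a list's genes, so very long genes weigh most. In the steroid list PDE4D spans 1553 kb with 20 lost distal peaks. In the clock list RORA spans 741 kb with 0 and had no H3K9ac at a start. Densities without such genes were not computed, so these 2 lists are no clear exception.

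Chromosomes differed. Lost distal peaks per Mb of distal sequence were highest on chromosome 17 (37.7) and lowest on chromosomes 4 (3.96) and 14 (4.93). Within genes with control H3K9ac at a start the values were 91.7 on chromosome 17 and 19.3 on chromosome 4, so the difference remained among marked genes. Distal butyrate H4K16ac peaks were also few on chromosomes 4 (1.24 per Mb) and 14 (1.41) and most dense on chromosome 17 (17.8). What sets the chromosomes apart was not tested.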

How the data were processed

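Per the labels, H3K9ac, H4K16ac, IgG and input chromatin were each read in 1 library with and 1 without butyrate (8 samples). The 6 peak lists were analysed and the 2 inputs were not. CASAVA 1.7 and MACS2 2.1.0 were used with hg19 (GRCh37), per the submitters' processing notes; the aligner and duplicate filter are unnamed in the labels. Per the file headers, each list is a narrow peak call on 1 library. The deposited values are the fold (a ratio, summit height over the local background), −log10 of p or q, and a score, as the authors gave them, and they were used to describe and filter peaks within a list. The largest q in the H3K9ac lists was 0.0499 with butyrate and 0.0500 in control, which are thus limited on q, while the H4K16ac lists are limited on p.

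Positions were read as GRCh38, not hg19: over 11373 genes the authors' starts lay a median of 42 bp from RefSeq starts of GRCh38.p14, and 99.5% within 100 kb. Printed starts are the deposited ones with 1 added. The authors' distance runs from the peak centre to the nearest gene-level start, so inner promoters do not count, and some of their gene models (PDE8A among them) start downstream of RefSeq. Genes were matched to RefSeq by symbol on the same chromosome (84.5% of 6057 hosts). Start peaks lie within 1 kb of any authors' or RefSeq start; 18539 of 19970 protein-coding genes had a known start. Densities count peaks that lie in 1-kb bins farther than 10 kb from the authors' starts (RefSeq starts for genes that lack one); bins under several genes count as marked where 1 gene is marked. This placed 93.0% of lost distal peaks. Fragment numbers were solved from fold and p (100% whole within 0.0001 in −log10 p) and depth with the MACS2 genome size of 2.7 Gb; the depth of the other libraries was not computed. Intervals are exact (Clopper-Pearson or Poisson) at 95% and cover counting only, and PCR copies are not independent.

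Python 3.11.15, numpy 2.4.6, pandas 2.3.3 and scipy 1.17.1 were used, and the overlap code was tested on simulated data. The peak set and the gene lists were chosen with earlier results of these data known. Named genes are the 12 hosts with most lost distal peaks, the 10 densest hosts with 10 or more, up to 3 per gene list, the 6 hosts with the highest share of butyrate H3K9ac overlap, the 6 strongest peaks, the 5 largest runs and 3 peaks on each side of the distance limit. The sequence examples, the longest genes without lost peaks, CUX1 as a sixth run and further tied or contrasting genes were chosen after their values were seen.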

Additional observations from a re-analysis of the deposited data

How the results depend on the processing

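There is 1 library per group, so no result has a replicate spread, and the counting intervals are narrow beside the effect of the settings. As deposited there were 37920 lost distal peaks, 94.8% of distal peaks lost, 8.02% with butyrate H3K9ac, and 1.26% with control H3K9ac. The values below are in the same order. Limiting both lists to a q of 0.05 gave 15242 lost distal peaks, 99.9% of distal peaks lost, 11.1% with butyrate H3K9ac, and 1.98% with control H3K9ac. Limiting both lists to a fold of 4 or more gave 1986 lost distal peaks, 99.5% of distal peaks lost, 17.4% with butyrate H3K9ac, and 4.98% with control H3K9ac. Control peaks with a q of 0.05 or less, set against all butyrate peaks, gave 14288 lost distal peaks, 93.6% of distal peaks lost, 10.3% with butyrate H3K9ac, and 1.93% with control H3K9ac. For equal numbers of top peaks only the control list was cut. This gave 16664 lost distal peaks, 93.8% of distal peaks lost, 9.93% with butyrate H3K9ac, and 1.81% with control H3K9ac.

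Counting a peak as shared only when 50% of it was overlapped gave 39106 lost distal peaks, 97.7% of distal peaks lost, 8.42% with butyrate H3K9ac, and 1.29% with control H3K9ac. Counting a butyrate peak within 1 kb as shared gave 34581 lost distal peaks, 86.4% of distal peaks lost, 7.3% with butyrate H3K9ac, and 1.19% with control H3K9ac. A distance limit of 5 kb gave 49554 lost distal peaks, 94.5% of distal peaks lost, 9.13% with butyrate H3K9ac, and 1.47% with control H3K9ac, and one of 50 kb 7063 lost distal peaks, 95.4% of distal peaks lost, 4.84% with butyrate H3K9ac, and 0.68% with control H3K9ac. Adding every RefSeq start, which the table lacks for chromosome 8, gave 34830 lost distal peaks, 95.1% of distal peaks lost, 7.17% with butyrate H3K9ac, and 0.896% with control H3K9ac. Merging rows within 1 kb gave 30986 lost distal peaks, 94.1% of distal peaks lost, 7.42% with butyrate H3K9ac, and 1.12% with control H3K9ac.

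With H3K9ac counted within 1 kb the shares were 15.9% with butyrate and 2.73% in control, and within 10 kb 45.3% and 12.8%. With equal numbers of top H3K9ac peaks the butyrate share was 3.004%. Under every one of these settings butyrate H3K9ac overlapped more lost distal peaks than control H3K9ac did. The share inside a gene stayed between 74.3% and 81.3%. The share in genes with 10 or more lost distal peaks fell as low as 1.76%, and the median spacing rose to 314137 bp, both at a fold of 4. Neither simply followed the number of peaks. The 50 kb limit, with 7063 peaks, gave 40.5% and 6754.5 bp. Cutting the control list to its top peaks, with 16664 lost distal peaks, gave 19.6% and 16522 bp. The number of lost distal peaks and the loss itself rest on thin peaks of 1 library per condition. No paired analysis was possible because each group has 1 library and no test was run.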
